A study of Mus musculus with 12 samples.

Results

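The genes described here encode 9 inhibitory and paired myeloid receptors and related proteins, namely Lilrb4a, Pirb, Pilra, Sirpa, Cd300lf, Cd200r1, Havcr2, Lilra5 and Cd274. They were listed by name, with earlier results of these data known, and found through their Ensembl identifiers among the 55487 genes of the count table. All 9 passed the filter on low counts, which left 15425 genes for testing. RNA-sequencing was done on microglia isolated from the cerebral cortex with beads against CD11b, an integrin chain on the surface of myeloid cells, so that each library is a bulk sample of the CD11b-positive cells of a mouse. The 12 male mice formed 4 groups of 3, namely WT mice given veh, WT mice given the protein rh Bri2 BRICHOS R221E, and likewise App NL-G-F mice given either of these. WT mice were C57BL/6J. App NL-G-F mice are knock-in mice on that background that carry a humanized Aβ sequence with the Swedish, Beyreuther/Iberian and Arctic mutations in the App gene itself, under its own promoter. Rh Bri2 BRICHOS R221E is a recombinant human variant of the BRICHOS chaperone domain of the Bri2 protein. Treatment started at 9 months of age and consisted of 24 intravenous injections over 12 weeks, either of PBS (veh) or of 10 mg/kg of the protein, and the mice were sacrificed 4 weeks after the last injection.

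Myeloid cells carry surface receptors that hold their responses in check. Many have a tyrosine motif in the cytoplasmic tail (the immunoreceptor tyrosine-based inhibitory motif, ITIM) that is phosphorylated by Src family kinases and then recruits phosphatases such as those encoded by Ptpn6, Ptpn11 and Inpp5d. Several of these receptors are paired, which means that a close relative with a similar outer part but a short tail binds the adaptors Tyrobp or Fcer1g and gives the opposite, activating signal. In the brain, the ligands of such receptors are found on neurons and other cells, and the receptors are known for restraining microglial phagocytosis and inflammatory signalling.

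In App NL-G-F mice, 4 of the 9 genes were higher than in WT mice, namely the receptors Lilrb4a, Cd300lf and Sirpa and the inhibitory ligand gene Cd274. The receptor genes Pirb and Lilra5 were lower. These 6 genes passed the test (edgeR's quasi-likelihood test, adjusted p under 0.05 over all tested genes) both between the veh-treated and between the protein-treated mice (called treated mice below), and Pilra, Cd200r1 and Havcr2 passed in neither. Between veh-treated mice, 20.1% of all tested genes were called higher and 16.9% lower, and between treated mice 20.8% were called higher and 21.8% lower. For each of the 6 called genes all 6 App NL-G-F mice lay above, or all 6 lay below, the 6 WT mice, which held for 29.6% of all tested genes. The median log2 fold change of the 9 genes was 0.12 between veh-treated mice and 0.26 between treated mice, beside -0.02 and -0.04 over all tested genes. In bulk samples, fewer cells of a type and less RNA per cell cannot be told apart, and this holds for every level given here. Rh Bri2 BRICHOS R221E changed 0 of the 9 genes at an adjusted p under 0.05 in WT mice, where 0% of all tested genes were called, and 0 of 9 in App NL-G-F mice, where 0.00648% were.

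**Figure D1:**
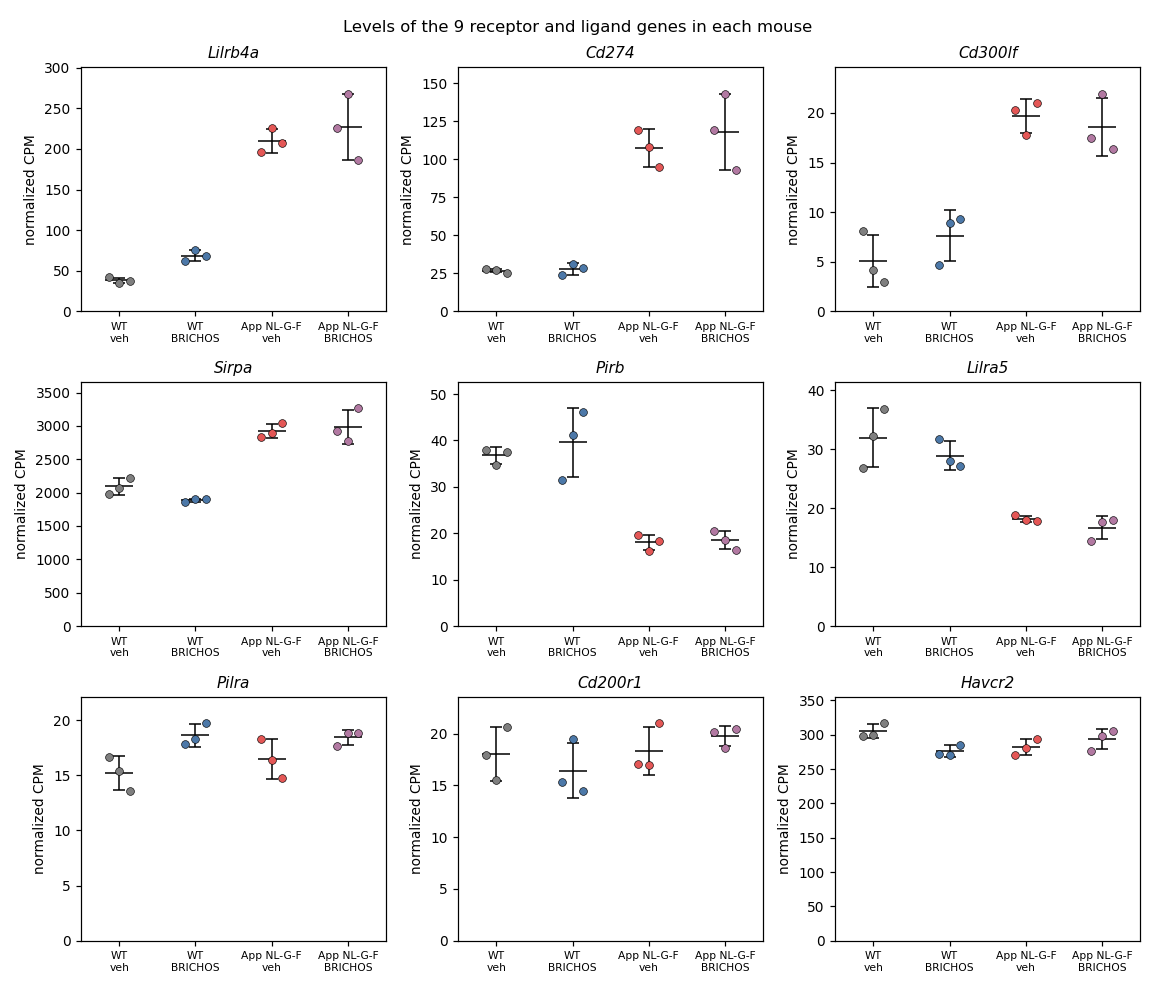
Level of each of the 9 genes in normalized CPM (vertical axes from 0) in the 3 mice of each group. Points are mice, horizontal bars are means and error bars SD. Lilrb4a, Cd274, Cd300lf and Sirpa are higher and Pirb and Lilra5 lower in all 6 App NL-G-F mice than in the 6 WT mice, and the genotypes overlap for Pilra, Cd200r1 and Havcr2.

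Between 12433402 and 17889654 reads per library were counted on genes. Levels are given in CPM (reads counted on the gene, scaled to a common library size with TMM factors) as mean ± SD of n = 3 mice, and a floor of 3 counts corresponded to 0.169 to 0.227 CPM, which covers counting error only. The microglial genes P2ry12 and Csf1r had at least 1279 and 6214 CPM in every library, whereas the T cell genes Cd3e, Cd3d and Cd3g had at most 0.328 CPM. Of the 10 microglial markers, which summed to between 27087 and 33105 CPM, 7 were called lower and 2 higher in App NL-G-F than in WT mice given veh (median log2 fold change -0.40), and 6 lower and 2 higher between treated mice (median -0.23). The 8 astrocyte markers summed to 4573 and 4102 CPM in mice 1 and 2 of the App NL-G-F group given veh, and to between 534.7 and 1959 CPM in the other libraries. The 8 neutrophil markers summed to between 266.7 and 444.7 CPM in the veh-treated WT mice 1 and 2 and the treated WT mice 2 and 3, and to between 14.1 and 74.0 CPM in the others. The 7 markers of border macrophages, the macrophages of the meninges and vessels, summed to between 407.9 and 657.4 CPM in WT mice and between 172.6 and 236.5 CPM in App NL-G-F mice, and all 7 were called lower in both genotype comparisons. The 6 monocyte markers ranged from 22.2 to 104.5 CPM in WT and from 11.7 to 27.9 CPM in App NL-G-F mice, and 3 of 6 were called lower in veh-treated and 5 of 6 in treated App NL-G-F mice. Values without the 2 libraries with high astrocyte markers and without the 4 with high neutrophil markers stand beside the results below. The first setting leaves 1 mouse in the App NL-G-F group given veh and the second leaves 1 mouse in each WT group, and in both the spread of the lone mouse is taken from the other groups.

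**Figure D2:**
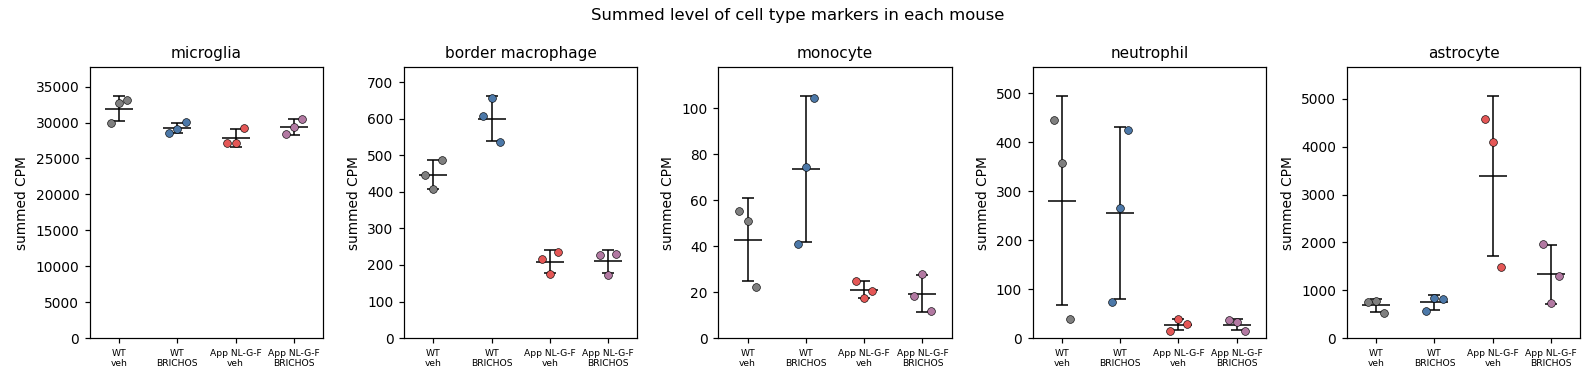
Summed level of the markers of 5 cell types in CPM (vertical axes from 0) in each mouse. Points are mice, horizontal bars are means and error bars SD. The border macrophage sums of the 6 App NL-G-F mice lie below those of the 6 WT mice, the neutrophil sums vary among WT mice, and the astrocyte sums of 2 App NL-G-F mice given veh are 4573 and 4102 CPM.

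Per kilobase of exon, the order of the genes was led by Sirpa and Havcr2 in every group. In veh-treated WT mice, Sirpa had 426 ± 25.1 CPM per kilobase (SD, n = 3), Havcr2 112 ± 3.86, Lilra5 15.2 ± 2.38, Pirb 8.22 ± 0.39, Cd274 7.41 ± 0.32, Lilrb4a 7.30 ± 0.68, Cd200r1 5.38 ± 0.77, Pilra 4.92 ± 0.50 and Cd300lf 0.99 ± 0.52. Lilrb4a overlapped there with both Cd274 and Pirb, and Pilra with Cd200r1. In App NL-G-F mice given veh, Lilrb4a with 40.1 ± 2.85 and Cd274 with 29.7 ± 3.40 CPM per kilobase followed Sirpa with 595 ± 22.5 and Havcr2 with 104 ± 4.28. Pirb with 4.04 ± 0.38 and Cd300lf with 3.83 ± 0.33 CPM per kilobase were last and overlapped.

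Among the ITIM-bearing receptors, Lilrb4a (ENSMUSG00000112148, GRCm38 chromosome 10 from 51490956 to 51496611, forward strand) had the largest difference between the genotypes when all 12 libraries were used, and was second to Cd300lf without the 4 libraries with high neutrophil markers. It encodes gp49B, an inhibitory receptor of mast cells, natural killer cells and macrophages. The veh-treated WT mice had 42.0, 34.9 and 37.5 CPM and the treated WT mice 61.9, 75.3 and 68.7 CPM. Veh-given App NL-G-F mice had 196.5, 225.9 and 207.0 CPM and the treated ones 226.2, 267.9 and 186.1 CPM. Every App NL-G-F mouse was thus above every WT mouse, and every treated WT mouse was above every veh-treated WT mouse, whereas the treated App NL-G-F mice lay on both sides of the veh-treated ones. Between veh-treated mice Lilrb4a was 5.50-fold higher in App NL-G-F (log2 fold change 2.46, SE 0.13, adjusted p = 8.11e-08), and between treated mice 3.31-fold higher (log2 fold change 1.72, SE 0.13, adjusted p = 9.33e-07). The log2 fold change between veh-treated mice was 2.45 without the 2 libraries with high astrocyte markers and 2.48 without the 4 libraries with high neutrophil markers, and between treated mice 1.75 and 1.87. Mast cell markers summed to at most 0.97 CPM in any library, and Mcpt4 and Tpsb2 had 0 counts in all 12. The 5 natural killer cell markers summed to between 1.42 and 3.77 CPM in veh-treated and between 3.21 and 6.70 CPM in treated WT mice, and to between 4.08 and 7.88 CPM and between 4.68 and 7.68 CPM in the corresponding App NL-G-F mice. Of the 3 that were tested, 1 was called higher in both genotype comparisons and 2 were called lower between treated mice. The part of these cells in the level of Lilrb4a was not tested.

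Reads of Lilrb4a may be shared with neighbouring genes. Gm49339, an annotated gene on the same strand, overlaps 1846 exonic bases, 35.3% of the exonic sequence of Lilrb4a, and of all 50-base windows of its transcripts 46.7% also occur in Gm49339 or in the paralog Lilr4b. Gm49339 had 0 or 1 count in every library, so almost no reads from the shared exons were counted on it. How such reads were divided is not given in the sources used here. If none of them had been counted, the level of Lilrb4a in veh-treated WT mice over the remaining exonic bases would be 11.3 instead of 7.30 CPM per kilobase, between Lilra5 and Pirb. From the other strand, Gm40645 overlaps 2.51% of the exonic bases of Lilrb4a.

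Cd300lf (ENSMUSG00000047798, chromosome 11 from 115116214 to 115133992, reverse strand) encodes a receptor of the CD300 family that binds phosphatidylserine and ceramide, lipids shown by dying cells. Per kilobase it was the least abundant of the 9 genes, with between 40 and 343 counts per library. It had 8.08, 4.21 and 2.98 CPM in veh-treated WT mice, 4.66, 8.90 and 9.33 CPM in treated WT mice, 20.3, 17.8 and 21.04 CPM in App NL-G-F mice given veh and 17.5, 21.9 and 16.4 CPM in treated App NL-G-F mice. The genotypes did not overlap, while the treated and veh-treated mice of each genotype did. Cd300lf was 3.86-fold higher in App NL-G-F mice given veh (log2 fold change 1.95, SE 0.33, adjusted p = 0.000679) and 2.43-fold higher in treated ones (log2 fold change 1.28, SE 0.31, adjusted p = 0.00633). Within both WT groups the level was lowest in the mouse with the lowest neutrophil marker sum, and neutrophils are known to express this gene. The same mouse also had the lowest monocyte and astrocyte marker sums of its group, so this order does not single out a cell type. The part of any of these cells in the level of Cd300lf was not tested. Without the 4 libraries with high neutrophil markers, the log2 fold change was 2.72 between veh-treated and 1.99 between treated mice, with adjusted p-values of 0.000596 and 0.00125.

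Sirpa (ENSMUSG00000037902, chromosome 2 from 129592835 to 129632228, forward strand) encodes the receptor for the "don't eat me" ligand Cd47 and restrains phagocytosis. With 28938 to 45275 counts per library it was by far the most abundant of the 9 genes, per kilobase too. It had 1981, 2072 and 2226 CPM in veh-treated WT mice and 1854, 1899 and 1900 CPM in treated WT mice. Veh-given App NL-G-F mice had 2832, 2889 and 3045 CPM and the treated ones 2923, 2769 and 3265 CPM. The difference between the genotypes was small beside that of Lilrb4a but exceeded the spread of the mice, with a 1.40-fold higher level in App NL-G-F mice given veh (log2 fold change 0.48, SE 0.07, adjusted p = 0.000339) and a 1.59-fold higher level in treated ones (log2 fold change 0.66, SE 0.07, adjusted p = 2.63e-05). Without the 4 libraries with high neutrophil markers, the call between veh-treated mice was lost (log2 fold change 0.39, adjusted p = 0.0632), and without the 2 libraries with high astrocyte markers it was kept (0.55, adjusted p = 0.00722). Between treated mice both settings kept it (0.69 and 0.68). No 50-base window of Sirpa transcripts occurs in another gene.

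Pirb (ENSMUSG00000058818, chromosome 7 from 3711409 to 3720391, reverse strand) encodes paired immunoglobulin-like receptor B, which binds MHC class I molecules and the myelin proteins encoded by Rtn4, Mag and Omg. It had 38.0, 34.8 and 37.6 CPM in veh-treated WT mice, 31.6, 41.2 and 46.0 CPM in treated WT mice, 19.6, 16.3 and 18.2 CPM in App NL-G-F mice given veh and 20.4, 18.6 and 16.5 CPM in treated App NL-G-F mice. All App NL-G-F mice were below all WT mice. This was a log2 fold change of -1.03 (SE 0.13, adjusted p = 0.000102) between veh-treated and -1.10 (SE 0.13, adjusted p = 5.35e-05) between treated mice, which is 2.04-fold and 2.14-fold lower. Of the 50-base windows of its transcripts, 34.0% occur in other genes, among them its relatives Gm14548, Pira2 and Lilra6, so that its level is uncertain as far as reads could be split.

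Pilra (ENSMUSG00000046245, chromosome 5 from 137821952 to 137836281, reverse strand) encodes an ITIM receptor of myeloid cells that binds sialylated proteins such as Pianp, and its human counterpart lies at a locus associated with AD risk. It had 16.6, 15.4 and 13.6 CPM in veh-treated WT mice, 17.8, 18.3 and 19.8 CPM in treated WT mice, 18.3, 16.3 and 14.8 CPM in App NL-G-F mice given veh and 17.6, 18.9 and 18.8 CPM in treated App NL-G-F mice. The genotypes overlapped. Pilra had a log2 fold change of 0.12 between veh-treated mice (95% CI from -0.11 to 0.34, adjusted p = 0.396) and -0.01 between treated mice (95% CI from -0.24 to 0.21, adjusted p = 0.924). Zcwpw1 overlaps 15.2% of its exonic bases from the other strand, and the strand setting of the counting is not given in the sources used here.

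Of the receptors that signal without an ITIM, Cd200r1 (ENSMUSG00000022667, chromosome 16 from 44765736 to 44794978, forward strand) binds Cd200 and acts through the adaptors encoded by Dok1 and Dok2 and the GTPase-activating protein encoded by Rasa1. It had 17.9, 15.5 and 20.6 CPM in veh-treated WT mice, 15.4, 19.5 and 14.4 CPM in treated WT mice, 17.03, 17.00 and 21.04 CPM in App NL-G-F mice given veh and 20.1, 18.6 and 20.5 CPM in treated App NL-G-F mice. The genotypes overlapped under both treatments. The log2 fold change between the genotypes was 0.03 in veh-treated mice (95% CI from -0.28 to 0.33, adjusted p = 0.892) and 0.26 in treated mice (95% CI from -0.04 to 0.57, adjusted p = 0.149). Cd200r1 was thus not called between treated mice, and it was called only when a single mouse was left out. Without the treated WT mouse 2 the log2 fold change was 0.41 with an adjusted p of 0.0409.

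Havcr2 (ENSMUSG00000020399, chromosome 11 from 46454935 to 46481255, forward strand) encodes TIM-3, a checkpoint receptor of T cells that is also strongly expressed by microglia and binds Lgals9, Ceacam1 and Hmgb1. It had 298.7, 299.6 and 317.3 CPM in veh-treated WT mice, 271.9, 270.7 and 285.7 CPM in treated WT mice, 270.3, 280.7 and 293.5 CPM in App NL-G-F mice given veh and 276.8, 298.8 and 304.9 CPM in treated App NL-G-F mice. The veh-treated WT mice were above all mice of the treated WT group and of the App NL-G-F group given veh, by small amounts. The log2 fold change between the genotypes was -0.12 in veh-treated mice (95% CI from -0.23 to -0.0007, adjusted p = 0.105) and 0.09 in treated mice (95% CI from -0.03 to 0.20, adjusted p = 0.203). Havcr2 had 3961 to 5052 counts per library. Its intervals were the narrowest of the 9 genes, although Sirpa had more counts, and changes of the size seen for Lilrb4a or Cd274 lie outside them.

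Lilra5 (ENSMUSG00000070873, chromosome 7 from 4237754 to 4243463, forward strand) encodes an activating receptor that lacks an ITIM and signals through Fcer1g. It had 26.8, 32.3 and 36.8 CPM in veh-treated WT mice, 31.7, 27.9 and 27.1 CPM in treated WT mice, 18.8, 17.9 and 17.8 CPM in App NL-G-F mice given veh and 14.46, 17.6 and 18.1 CPM in treated App NL-G-F mice. All App NL-G-F mice were below all WT mice. Its log2 fold change was -0.81 (SE 0.12, adjusted p = 0.000302) between veh-treated and -0.79 (SE 0.12, adjusted p = 0.000315) between treated mice, which is 1.76-fold and 1.73-fold lower. None of its 50-base windows occurs in another gene. Of the 10 microglial markers, 7 were also called lower in App NL-G-F mice given veh and 6 in treated ones, while 2 were called higher in both. All 7 border macrophage markers were called lower in both comparisons, with a median log2 fold change of -1.06 between veh-treated and -1.51 between treated mice. Also called lower were 7 of 8 endothelial cell markers in both comparisons. The same held for 8 of 8 neutrophil markers between veh-treated and 6 of 8 between treated mice. None of these endothelial cell and neutrophil markers was called higher. The part of these markers in the result was not tested. Without the 4 libraries with high neutrophil markers, the log2 fold change between veh-treated mice was -1.06 for Pirb and -1.02 for Lilra5, and between treated mice -0.77 and -0.93, and all 4 calls were kept.

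Cd274 (ENSMUSG00000016496, chromosome 19 from 29367455 to 29388095, forward strand) encodes PD-L1, the ligand that engages the checkpoint receptor encoded by Pdcd1 and that is induced by interferons. It had 27.9, 27.1 and 25.6 CPM in veh-treated WT mice, 23.9, 31.3 and 28.9 CPM in treated WT mice, 119.5, 108.2 and 94.8 CPM in App NL-G-F mice given veh and 119.2, 142.7 and 92.8 CPM in treated App NL-G-F mice. The lowest App NL-G-F mouse, at 92.8 CPM, was far above the highest WT mouse at 31.3 CPM. Cd274 was 4.00-fold higher in App NL-G-F mice given veh (log2 fold change 2.0015, SE 0.15, adjusted p = 1.46e-06) and 4.22-fold higher in treated ones (log2 fold change 2.08, SE 0.15, adjusted p = 9.44e-07). The log2 fold change between veh-treated mice was 1.83 without the 2 libraries with high astrocyte markers and 2.07 without the 4 with high neutrophil markers, and between treated mice 2.10 and 2.30. AC119228.1, with at most 20 counts per library, overlaps 14.1% of the exonic bases of Cd274 from the other strand. The strand setting of the counting is not given in the sources used here.

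**Figure D3:**
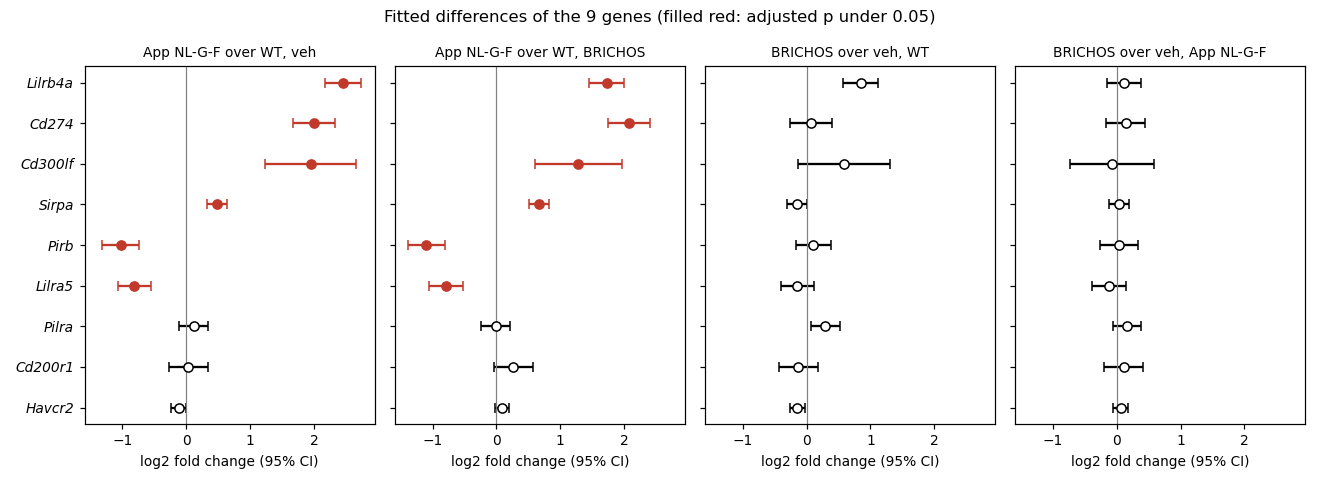
Log2 fold change of the 9 genes with its 95% confidence interval (horizontal axes) in 4 comparisons, from edgeR's quasi-likelihood fit over 12 mice. Filled red points have an adjusted p under 0.05. The same 6 genes are called in both genotype comparisons and none in the treatment comparisons, where the log2 fold change of 0.85 of Lilrb4a in WT mice lies farthest from 0.

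The 250 bases before the annotated start were read from RefSeq's promoter sequences (GRCm38.p6), which held 6 of the 9 genes. They are shown for 2 genes that fell and 2 that rose in App NL-G-F mice, with matches to 4 short motifs in capitals. Both strands were searched. RefSeq's starts can differ from those of the annotation used for the positions above.
Pirb, chr7:3720383-3720632, reverse strand: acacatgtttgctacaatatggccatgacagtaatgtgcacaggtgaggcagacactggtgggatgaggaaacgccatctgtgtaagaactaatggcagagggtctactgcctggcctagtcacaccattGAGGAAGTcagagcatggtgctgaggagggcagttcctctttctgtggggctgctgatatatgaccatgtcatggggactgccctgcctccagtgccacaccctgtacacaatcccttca
Lilra5, chr7:4237504-4237753, forward strand: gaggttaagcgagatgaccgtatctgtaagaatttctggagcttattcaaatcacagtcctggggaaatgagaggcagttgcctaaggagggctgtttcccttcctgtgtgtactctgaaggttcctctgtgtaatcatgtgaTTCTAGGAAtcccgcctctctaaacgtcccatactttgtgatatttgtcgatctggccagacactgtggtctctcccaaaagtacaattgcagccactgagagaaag
Cd274, chr19:29367188-29367437, forward strand: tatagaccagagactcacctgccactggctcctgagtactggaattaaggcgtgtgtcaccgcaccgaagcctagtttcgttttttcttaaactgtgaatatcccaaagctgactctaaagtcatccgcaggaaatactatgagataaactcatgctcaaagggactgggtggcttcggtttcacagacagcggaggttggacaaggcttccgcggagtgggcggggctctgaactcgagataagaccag
Cd300lf, chr11:115133993-115134242, reverse strand: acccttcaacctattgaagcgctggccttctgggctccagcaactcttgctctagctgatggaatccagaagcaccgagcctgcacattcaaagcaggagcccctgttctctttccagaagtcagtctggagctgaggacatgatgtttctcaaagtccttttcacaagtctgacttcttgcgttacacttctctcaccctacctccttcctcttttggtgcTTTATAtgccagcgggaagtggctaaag
The letters GAGGAAGT, a form of the site of the myeloid factor PU.1, are found at 120 to 113 bases before the start of Pirb and, with all promoters searched alike, in 2.44% of 32851 promoters. The letters TTCNNNGAA, the core of the site of STAT factors, are found at 107 to 99 bases before the start of Lilra5 and in 7.02% of promoters. The letters TATAAA are found on the other strand at 28 to 23 bases before the start of Cd300lf and in 12.4% of promoters. The letters TGANTCA of the AP-1 site are found in none of the 4 sequences shown and in 6.75% of promoters, and Cd274 holds none of the 4 motifs. Among the members not shown, Havcr2 holds GAGGAAGT and TGANTCA and Pilra none.

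Among the 9 members, the log2 fold change with rh Bri2 BRICHOS R221E in WT mice was largest for Lilrb4a. Its level was 1.80-fold higher in treated than in veh-treated WT mice (68.6 ± 6.70 against 38.1 ± 3.57 CPM, log2 fold change 0.85, SE 0.13), with no overlap between the 3 and 3 mice, but this missed the threshold with an adjusted p of 0.0848 (unadjusted p = 2.75e-05) in edgeR's fit, where 0 of all tested genes passed. The call depended on the test, and the veh-treated WT mice also serve in the genotype comparison between veh-treated mice. DESeq2's Wald test gave an adjusted p of 2.76e-06, and edgeR gave 0.00723 without the filter on low counts and 0.0397 without the treated App NL-G-F mouse 2, which is in neither group and only enters the estimate of the spread. Over all alternatives the adjusted p lay between 2.76e-06 and 0.923 and the log2 fold change between 0.72 and 0.92. The border macrophage markers summed to between 407.9 and 486.4 CPM in veh-treated and between 537.1 and 657.4 CPM in treated WT mice, and 5 of 7 were higher at an unadjusted p under 0.05. The monocyte markers summed to between 22.2 and 55.4 CPM and between 41.1 and 104.5 CPM, and 4 of 6 were higher at that threshold. The 6 dendritic cell markers summed to between 48.8 and 58.7 CPM and between 67.5 and 75.9 CPM, with no overlap, and 2 of the 4 tested were higher at that threshold. The part of these cells in the result was not tested.

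Of the other members in WT mice, Pilra was higher in all 3 treated mice (log2 fold change 0.29, unadjusted p = 0.0147, adjusted p = 0.314), and Havcr2 (-0.14, unadjusted p = 0.0189, adjusted p = 0.34) and Sirpa (-0.15, unadjusted p = 0.06, adjusted p = 0.457) were lower in all 3. Thus 4 of 9 members did not overlap between the treated and veh-treated WT mice, beside 17.5% of all tested genes, and 3 of 9 had an unadjusted p under 0.05 from edgeR, beside 11.4%. The remaining log2 fold changes lay between -0.14 for Lilra5 and 0.59 for Cd300lf.

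In App NL-G-F mice all 9 members overlapped between treated and veh-treated mice. The share of all tested genes without overlap was 13.5%, and 9 genes are too few to tell 0 from that share. The log2 fold changes lay between -0.12 for Lilra5 and 0.16 for Pilra, and 0 of 9 had an unadjusted p under 0.05 from edgeR, beside 10.8% of all tested genes. Lilrb4a had 226.8 ± 40.9 CPM in treated and 209.8 ± 14.9 CPM in veh-treated mice (log2 fold change 0.11, 95% CI from -0.15 to 0.38, adjusted p = 0.796), and Cd274 had 118.2 ± 25.0 and 107.5 ± 12.3 CPM (log2 fold change 0.14, 95% CI from -0.17 to 0.45, adjusted p = 0.79). The interval was widest for Cd300lf, from -0.74 to 0.58. DESeq2's Wald test called 0 of the 9 as well.

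The difference between the treatment effects in the 2 genotypes was tested as an interaction. It was -0.74 for Lilrb4a (log2 scale, SE 0.17, unadjusted p = 0.00132) and missed the threshold with an adjusted p of 0.157 in edgeR's fit, while DESeq2's Wald test gave 0.0179 and edgeR without the filter 0.0449. The range over all alternatives was 0.0179 to 0.66. For Havcr2 the interaction was 0.20 (SE 0.07, unadjusted p = 0.0187, adjusted p = 0.251). The other 7 members had unadjusted p-values of 0.102 or more, so that 2 of 9 were under 0.05 beside 14.8% of all tested genes. At the adjusted threshold 0 of 9 members and 0.00648% of all tested genes were called.

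The other genes of these pathways were taken from a list of 67, of which 64 were matched and 60 tested. Between veh-treated mice 21 were called higher and 17 lower in App NL-G-F, and between treated mice 22 higher and 20 lower, so that 22 and 18 did not pass. Of all tested genes, 37% and 42.5% were called in these comparisons. The paralogs of the members split into both directions, with 5 of 19 tested called higher and 4 lower between veh-treated and 4 higher and 10 lower between treated mice.

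Of the paralogs that share sequence with a member, Lilr4b, the neighbour of Lilrb4a on chromosome 10, encodes gp49A and lacks the ITIM. It had 27.5, 23.0 and 21.4 CPM in veh-treated WT mice, 48.4, 51.0 and 55.2 CPM in treated WT mice, 46.2, 62.4 and 54.8 CPM in App NL-G-F mice given veh and 54.2, 79.9 and 45.4 CPM in treated App NL-G-F mice. The veh-treated WT mice were below all others. Lilr4b was 2.28-fold higher in App NL-G-F mice given veh (log2 fold change 1.19, SE 0.19, adjusted p = 0.000472), less than Lilrb4a, and between treated mice the log2 fold change was 0.22 (SE 0.18, adjusted p = 0.361), where that of Lilrb4a was 1.72. In WT mice the treatment gave a log2 fold change of 1.11 (SE 0.19, adjusted p = 0.151, and 3.61e-05 from DESeq2's Wald test). Windows of 50 bases shared with Lilr4b make up 26.1% of those of Lilrb4a, so the levels of both genes are uncertain as far as reads could be split.

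Cd200r4, an activating relative of Cd200r1 that pairs with Tyrobp, had 2.05, 1.25 and 2.01 CPM in veh-treated WT mice and 44.7, 38.1 and 48.8 CPM in App NL-G-F mice given veh, a 25.0-fold difference (log2 fold change 4.64, SE 0.17, adjusted p = 5.77e-09). In treated mice the levels were 2.65, 2.70 and 2.46 CPM in WT and 40.1, 50.2 and 48.3 CPM in App NL-G-F mice (log2 fold change 4.14, SE 0.16, adjusted p = 7.11e-09). Cd200r1 itself did not pass in either comparison, and shares 1.16% of its 50-base windows with Cd200r4. Another gene of this family, Cd200r2, which was singled out after its values were seen, had 0 counts in all 3 veh-treated WT mice and 11 to 15 counts in App NL-G-F mice given veh, which is at least 4.07-fold higher than the highest floor of 3 counts per library in veh-treated WT mice. In treated mice Cd200r2 had 0 to 2 counts in WT and 2 to 25 counts in App NL-G-F mice, the lowest of which was under that floor.

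Lilra6 and Pira2, which share 15.04% and 16.8% of the windows of Pirb, were low, with at most 2.25 and 0.96 CPM in any library. The log2 fold change of Lilra6 was -1.06 between veh-treated mice (adjusted p = 0.0392) and -2.32 between treated mice (adjusted p = 0.000484), and that of Pira2 -0.95 (adjusted p = 0.147) and -0.99 (adjusted p = 0.0978). Pilrb1 and Pilrb2, the activating partners of Pilra, had at most 1.63 and 2.31 CPM, with log2 fold changes of -0.62 (adjusted p = 0.258) and -0.47 (adjusted p = 0.513) between veh-treated mice and of -1.37 (adjusted p = 0.0136) and -2.01 (adjusted p = 0.00983) between treated mice. Cd300ld, which shares 1.80% of the windows of Cd300lf, had a log2 fold change of -0.03 (adjusted p = 0.901) between veh-treated and -0.90 (adjusted p = 0.00202) between treated mice. Sirpb1b, a relative of Sirpa and not of Havcr2, shares 0.15% of the windows of Havcr2 and none with Sirpa. It had log2 fold changes of -0.79 (adjusted p = 0.23) between veh-treated and -2.83 (adjusted p = 0.00061) between treated mice. Its level was low, with at most 2.99 CPM in any library. Counts were 2 to 13 in App NL-G-F mice given veh and 4 to 6 in treated App NL-G-F mice. Cd300lb, an activating relative of Cd300lf that was singled out after its values were seen, had log2 fold changes of 1.86 (adjusted p = 0.000112) and 1.14 (adjusted p = 0.00213). Many of these genes are also known from monocytes and neutrophils. Between veh-treated mice 3 of 6 monocyte and 8 of 8 neutrophil markers were called lower in App NL-G-F mice. Between treated mice 5 of 6 and 6 of 8 were called lower. None was called higher, but the highest monocyte log2 fold changes were 0.65 between veh-treated and 0.81 between treated mice. The part of those cells was not tested.

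**Figure D4:**
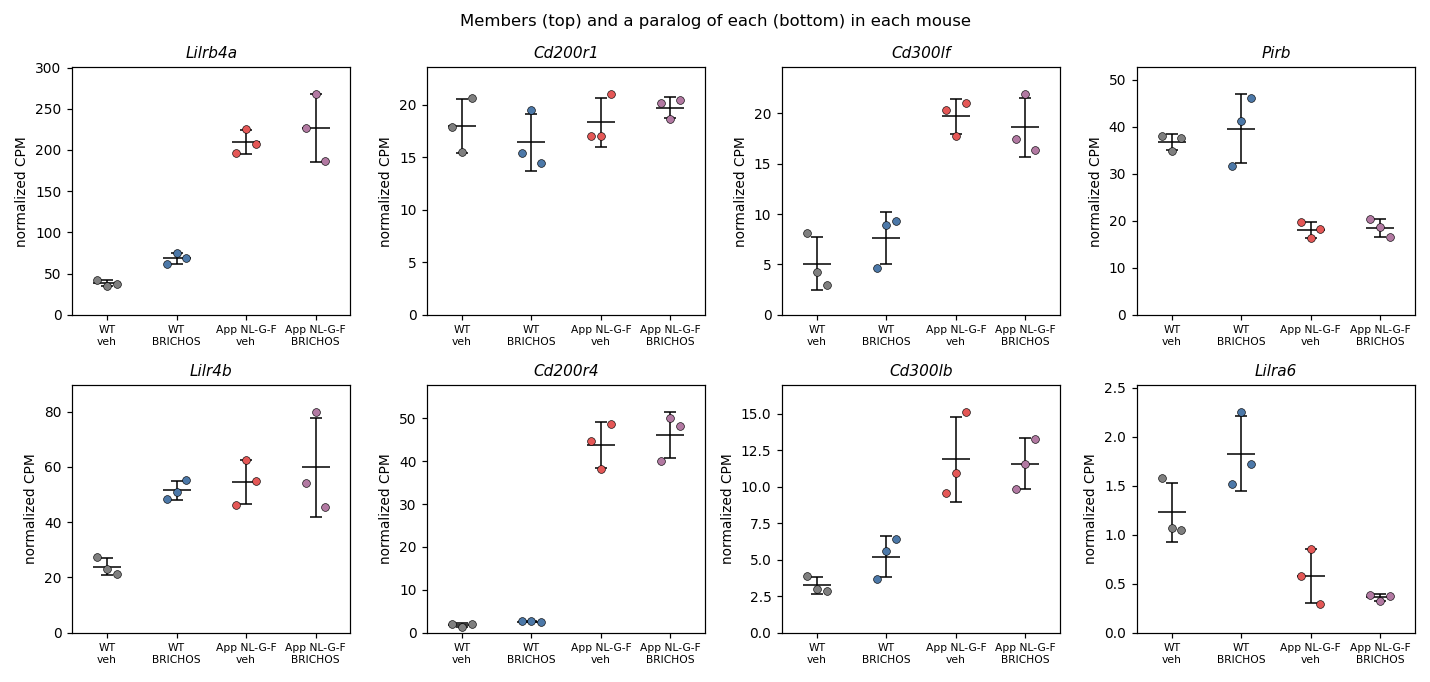
Level in CPM (vertical axes from 0) of 4 members (top) and of a paralog of each (bottom) in the 3 mice of each group. Points are mice, horizontal bars are means and error bars SD. Cd200r4 lies between 38.1 and 50.2 CPM in App NL-G-F and between 1.25 and 2.70 CPM in WT mice, while Cd200r1 overlaps, and the veh-treated WT mice are lowest for Lilr4b.

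Among the ligands and partners of the receptors, 5 of 13 were called higher and 3 lower in both genotype comparisons. Of all tested genes, 20.1% were called higher and 16.9% lower between veh-treated mice, and 20.8% and 21.8% between treated mice. Pdcd1, which encodes PD-1, the receptor engaged by Cd274, was between 6.87 and 10.3 CPM in WT and between 78.5 and 104.4 CPM in App NL-G-F mice, with a log2 fold change of 3.45 (SE 0.12, adjusted p = 4.52e-09) between veh-treated mice. T cells are a known source of Pdcd1. The 8 T cell markers summed to between 3.94 and 9.10 CPM, of which Cd4, also known from myeloid cells, had 2.69 to 7.73 CPM, and Cd3e, Cd3d and Cd3g had at most 5 counts in any library. The sums were 4.63 to 9.10 CPM in WT and 3.94 to 5.50 CPM in App NL-G-F mice, and the part of T cells in the level of Pdcd1 was not tested. Pianp, which encodes a ligand of Pilra, was between 1.37 and 2.83 CPM in WT and between 123.4 and 166.0 CPM in App NL-G-F mice (log2 fold change 5.91, SE 0.21, adjusted p = 4.3e-09). The MHC class I genes B2m, H2-K1 and H2-D1, whose products bind Pirb, had log2 fold changes of 1.04, 1.06 and 1.34 between veh-treated mice, and their levels were higher in all 6 App NL-G-F than in all 6 WT mice.

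The 3 ligand genes that were lower were Cd200, Lgals9 and Ceacam1. Cd200, the ligand of Cd200r1, was between 7.15 and 10.7 CPM in WT and between 2.95 and 5.45 CPM in App NL-G-F mice (log2 fold change -0.95, SE 0.18, adjusted p = 0.00156, between veh-treated mice). It is known from neurons and endothelial cells, whose marker sums went from 15.7 to 23.8 CPM and from 656.5 to 736.6 CPM in veh-treated WT to 6.97 to 7.15 CPM and 471.4 to 634.5 CPM in App NL-G-F mice given veh, and the part of these cells was not tested. Ceacam1 and Lgals9, ligands of Havcr2, had log2 fold changes of -1.25 (SE 0.09, adjusted p = 8.95e-07) and -0.42 (SE 0.05, adjusted p = 6.37e-05). Cd47, the ligand of Sirpa, was between 79.6 and 86.2 CPM in WT and between 71.3 and 82.0 CPM in App NL-G-F mice, and its log2 fold change of -0.05 (SE 0.06, adjusted p = 0.539) did not pass. Hmgb1, Rtn4, Mag and Omg did not pass either, with log2 fold changes between -1.03 for Mag and -0.03 for Omg and standard errors of 0.59 and 0.53 for these 2 oligodendrocyte genes.

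**Figure D5:**
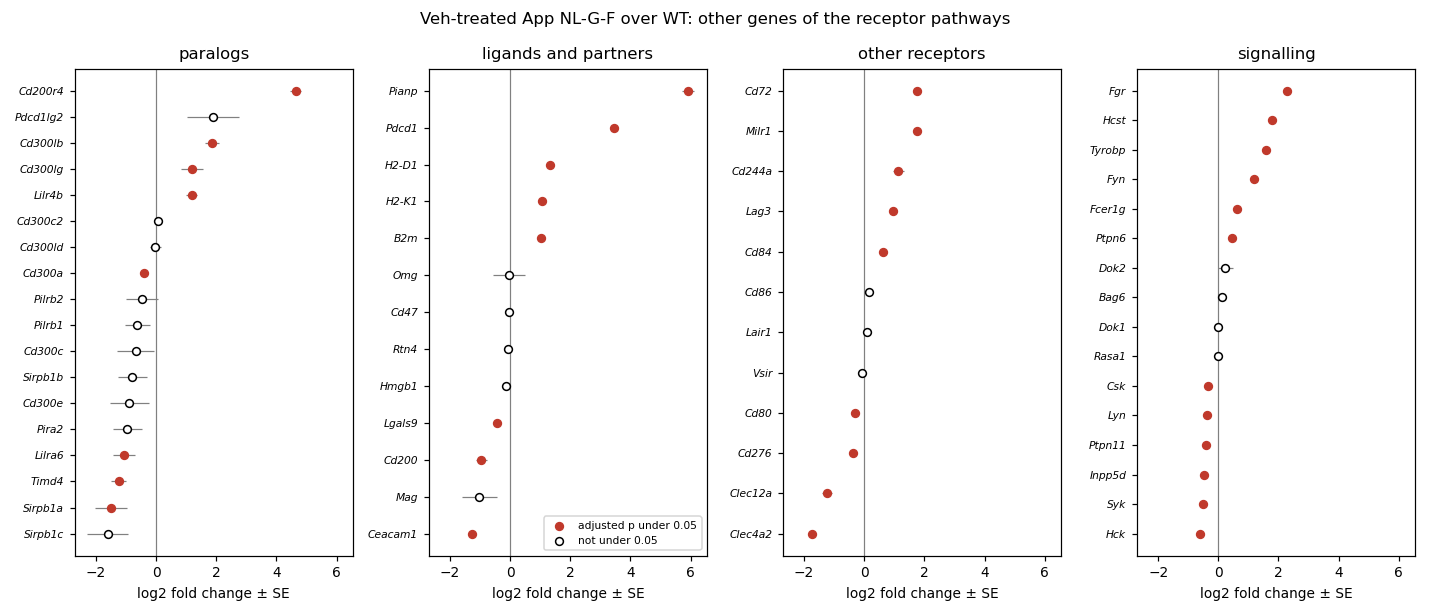
Log2 fold change with its SE (horizontal axes) of the other tested genes of these pathways in App NL-G-F against WT mice, all given veh, by role. Filled red points have an adjusted p under 0.05, and Cd200r2, which had 0 counts in veh-treated WT mice, is left out. Pianp, Cd200r4 and Pdcd1 lie farthest to the right, and Clec4a2 farthest to the left.

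Of the other inhibitory or costimulatory receptors, 5 of 12 tested were called higher and 4 lower between veh-treated mice, and 6 higher and 2 lower between treated mice. The shares of all tested genes were 20.1% higher and 16.9% lower, and 20.8% higher and 21.8% lower. Cd72, an ITIM receptor best known from B cells, had a log2 fold change of 1.76 (SE 0.14) and Milr1, an inhibitory receptor of mast cells, of 1.74 (SE 0.07). Cd244a, a receptor of natural killer cells, and Lag3, a checkpoint receptor that binds MHC class II, had log2 fold changes of 1.14 (SE 0.20) and 0.95 (SE 0.05). Lag3 was between 580.4 and 673.1 CPM in WT and between 1227 and 1396 CPM in App NL-G-F mice. The C-type lectin receptors Clec4a2 and Clec12a, both with an ITIM, were lower, with log2 fold changes of -1.75 (SE 0.09) and -1.23 (SE 0.17). All 6 passed with adjusted p-values between 1.8e-08 and 0.000879 between veh-treated mice, and Cd244a did not pass between treated mice (log2 fold change 0.40, adjusted p = 0.108).

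Of the 16 signalling genes, 6 were called higher and 6 lower between veh-treated mice, beside 20.1% and 16.9% of all tested genes. Between treated mice 7 were called higher and 5 lower, beside 20.8% and 21.8%. The largest differences were those of the Src family kinase gene Fgr (log2 fold change 2.29, SE 0.11), the activating adaptor gene Hcst (1.78, SE 0.13), the activating adaptor gene Tyrobp (1.57, SE 0.09) and the Src family kinase gene Fyn (1.20, SE 0.10). Tyrobp was between 656.7 and 797.0 CPM in WT and between 2106 and 2845 CPM in App NL-G-F mice. Of the phosphatase genes, which were singled out after their values were seen, Ptpn6 was higher (log2 fold change 0.45, SE 0.05, adjusted p = 3.55e-05), and Inpp5d (-0.47, SE 0.05, adjusted p = 2.86e-05) and Ptpn11 (-0.42, SE 0.14, adjusted p = 0.0294) were lower between veh-treated mice. Between treated mice Ptpn11 did not pass (-0.17, adjusted p = 0.331).

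Rh Bri2 BRICHOS R221E changed 0 of the 60 tested pathway genes in WT mice and 0 in App NL-G-F mice at an adjusted p under 0.05 in edgeR's fit, and DESeq2's Wald test called 3 and 1, beside 0.519% and 0.752% of all tested genes. At an unadjusted p under 0.05 from edgeR, 17 of 60 differed in WT mice (11 higher and 6 lower) and 7 of 60 in App NL-G-F mice (6 higher and 1 lower), beside 11.4% and 10.8% of all tested genes. Of the 11 that were higher in treated WT mice, 8 were among the 19 tested paralogs of the members. Of all 15425 tested genes, 1010 were higher at that threshold. So were 5 of 7 border macrophage and 4 of 6 monocyte markers, and the part of these cells in the result was not tested.

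The genes whose log2 CPM followed each member most closely over the 12 libraries are given as a description, since the libraries fall into 2 genotypes and the likeness mostly follows the genotype difference. Lilrb4a was closest to Klrb1b, Fgr and Anxa2 (Pearson's r from 0.987 to 0.991), Cd274 to Mical1, Psmb8 and Prdx1 (0.995 to 0.996), Sirpa to Gpr137b, Manba and Cd84 (0.993 to 0.995) and Cd300lf to Selenon, Galnt9 and Cenpa (0.965 to 0.97). Pirb was closest to Ltc4s, Zfp691 and Gm10790 (0.977 to 0.986) and Lilra5 to Cwf19l2, Gm36266 and Eng (0.971 to 0.976). The 3 members that passed in neither genotype comparison reached lower values, with Aldh3a2 for Cd200r1 (0.886), Ash2l, Cdk13 and Vsir for Havcr2 (0.877 to 0.881) and Ifitm3 for Pilra (0.845).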

How the data were processed

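RNA-sequencing libraries of CD11b-positive cortical cells from 12 mice were analysed. The authors trimmed reads with Cutadapt, aligned them to GRCm38 with STAR (version 2.6.1d in the submitters' processing notes), counted them with featureCounts 1.5.1 and deposited raw counts per gene. Ensembl identifiers were matched to symbols with GENCODE M21 for 55227 of 55487 genes. R 4.3.3 with edgeR 4.0.16 (filterByExpr, minimum count of 10; TMM; quasi-likelihood fit of the 4 group means over 12 libraries) was the main test and DESeq2 1.42.0 an alternative. P-values were adjusted by Benjamini and Hochberg over 15425 genes. Log2 CPM used a prior count of 2. The tests were checked on simulated data. The members and lists were chosen with earlier results of these data known. Named were the 9 members, paralogs sharing sequence with them, ligands, the 10 genes with the largest change among the other receptors and signalling genes called between veh-treated mice, and the 3 genes most like each member. Alternatives were DESeq2's size factors and Wald test, no filter, only the compared groups, a replicate block, each library left out, and, added after seeing the data, the libraries with high astrocyte or neutrophil markers left out. Protein sequences were not used here.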

Additional observations from a re-analysis of the deposited data

How the results depend on the processing

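Over 19 alternatives (18 for the interaction, to which the fit of only the compared groups was not applied), the 6 genotype calls kept their direction in both comparisons, and the exception in significance was Sirpa between veh-treated mice without the 4 libraries with high neutrophil markers (log2 fold change 0.39, adjusted p = 0.0632). In WT mice 1 member, Lilrb4a, was called with DESeq2's Wald test and 1 without the filter on low counts, and with each mouse left out between 0 and 1 were called. For the interaction 1 member was called with DESeq2's Wald test and 1 without the filter. The cause was not tested. Small log2 fold changes of members that did not pass turned sign. Without the 2 libraries with high astrocyte markers they were -0.0339 for Pilra between veh-treated mice, -0.0155 for Sirpa and -0.0795 for Cd200r1 for the protein against veh within App NL-G-F, and 0.0086 for Pilra between treated mice. Without the 4 with high neutrophil markers they were -0.1742 for Cd200r1 between veh-treated mice, -0.2522 for Pirb and -0.0958 for Cd274 in the treatment comparison in WT mice, and 0.0462 for Pilra between treated mice. For Pilra between treated mice they were 0.0067 with DESeq2's size factors and 0.0060 with its Wald test. With each mouse left out, the ranges were -0.0811 to 0.1352 for Cd200r1 between veh-treated mice, -0.0151 to 0.2421 for Pirb and -0.0240 to 0.1600 for Cd274 in treated against veh-treated WT mice, -0.0178 to 0.2370 for Lilrb4a, -0.0382 to 0.1185 for Pirb, -0.0370 to 0.0907 for Sirpa, -0.2105 to 0.0013 for Cd300lf and -0.0127 to 0.2855 for Cd274 for the protein against veh within App NL-G-F, and, between treated mice, -0.0401 to 0.0317 for Pilra and -0.0451 to 0.3842 for Lilr4b. The replicate number was not taken to pair the mice in the main fit. Correlations of the deviations of same-numbered mice lay between -0.0148 and 0.227, which does not exclude a shared effect. With the number as a replicate block, 7 members were called between veh-treated mice, Havcr2 (log2 fold change -0.12, adjusted p = 0.0386) being added, and 6, 0, 0 and 0 in the other comparisons.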
